A study of Homo sapiens with 4 samples.

Results

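The genes examined were those that sense and repair DNA double-strand breaks and interstrand crosslinks, 41 genes named from textbook knowledge of these pathways, of 23217 gene symbols in the deposited table of transcripts. All 41 were found there by symbol, as 98 listed transcripts, and the values of all transcripts of a symbol were added. Of the 98, 7 are copies of MDC1 on alternative versions of chromosome 6 in the reference, all listed at 0. RNA came from LV-M100, a single low-variability clone of the human breast cancer line MDA-MB-231, 48 h after siRNA transfection with a lipid reagent. The experiment had 4 libraries in 2 groups. In the control group (siControl), the negative control siRNA NC1 was used in replicate 1 and the BLOCK-iT Fluorescent Oligo in replicate 2. The cells of replicates 1 and 2 of the other group received siRNAs #1 and #2 against SNRNP40 (siSNRNP40), a protein of the U5 ribonucleoprotein of the spliceosome. All groups shared the clone, the transfection and the removal of ribosomal RNA before sequencing.

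The table holds 1 FPKM value per transcript and condition (sequenced fragments per kilobase of transcript, scaled to the number of mapped fragments), in which the 2 libraries of a condition are pooled. No value used here therefore has a replicate error, no test between the conditions could be made from these values, and all differences below are descriptions of 2 pooled values. The depth of the libraries is unknown, and the effects of siRNAs #1 and #2 cannot be told apart. SNRNP40 itself had an FPKM of 40.4 in siControl and 6.12 in siSNRNP40 cells, which leaves 15.1% of the control level (log2 fold change -2.72). Of 7 genes fixed as markers of the mesenchymal MDA-MB-231 line, 6 were above an FPKM of 1 in both conditions, among them VIM with 750.1 and 733, while SPARC was at 0.240 and 0.218. The oestrogen receptor gene ESR1 (0.0199 and 0.0108) and the epithelial cadherin gene CDH1 (0.0980 and 0.0423) were near 0. EPCAM, ERBB2 and GATA3, also listed as genes low in this line, were above 1 in both conditions. Of further cell type markers, the leukocyte gene PTPRC and ALB were listed at 0, and CD3E and COL1A1 reached at most 0.0960 and 0.177. PECAM1 was higher, at 0.922 in siControl and above 1 in siSNRNP40 cells, with a mean FPKM above 1.

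Double-strand breaks are repaired by homologous recombination, which resects the ends and copies a sister chromatid, or by end joining, which ligates the ends directly. The MRE11-RAD50-NBN complex senses ends, BRCA1 and BRCA2 with their partners prepare the resected end for strand exchange, and Ku with the kinase DNA-PKcs starts end joining. Interstrand crosslinks are recognised by the Fanconi anaemia proteins, which hand the resulting break to recombination, and the kinases ATM and ATR signal damage to the checkpoint. Many of these genes are long, with many exons, and breast cancer predisposition is linked to several of them. The question asked of the data was whether their RNA levels, and the transcripts that make up each level, differed when a spliceosomal protein was depleted.

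The siRNAs are shown with the longest stretch that either shares with the canonical transcript of a member, in either orientation, because such a stretch could bear on that member's value. Capitals mark the shared bases for siRNA #1, and the printed strands match SNRNP40 without a mismatch.
siSNRNP40 #1: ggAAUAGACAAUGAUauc
siSNRNP40 #2: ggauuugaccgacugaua
The 13 capital bases of siRNA #1 are complementary to MRE11A RNA (read along the gene, atcattgtctatt), in the 3' UTR of exon 20 of 20, on chr11:94148838-94148850 of GRCh37, which lies on the minus strand. The listed MRE11A transcripts end before it, since the table places them within chr11:94150469-94227040. The RNA in the cells may reach further than the listed transcripts. Whether the stretch bears on the MRE11A value was not tested. The sum of the MRE11A transcripts, 27.0 in siControl and 26.5 in siSNRNP40, differed by -0.03 on the log2 scale. siRNA #2 shared at most 9 bases in a row with any of the 41 transcripts. Only the longest run was searched, shorter matches were not counted, and effects of the siRNAs on RNAs other than SNRNP40 were not tested.

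All 41 genes were expressed in both conditions, with a lowest summed FPKM of 3.03 (RAD52 in siSNRNP40), so every member passed the filter of a mean FPKM of at least 1 and none passed it through 1 condition only. None of the 41 had an absolute log2 fold change (siSNRNP40 over siControl) above 1, where 1.47% of all 12334 genes that passed the filter did. Above an absolute log2 fold change of 0.5 there were 2 members, ATRIP and CHEK2, both higher in siSNRNP40 cells, which is 4.88% of the members where the share of all genes was 10.3% (5.24% higher). No member was below -0.5, where 5.06% of all genes lay, and 31 of 41 (75.6%) were within 0.25 of no change on the log2 scale (66.3% of all genes). Small differences were mostly downward, with 21 members below -0.1 (33.9% of all genes) and 8 above 0.1 (34.7% of all genes). The log2 fold change was below 0 in 27 members (65.9%) and above 0 in 14, whereas 49.5% of all genes were below 0. The members' median log2 fold change was -0.11 and that of all genes 0.0034. Their median absolute log2 fold change was 0.163, close to the 0.170 of all genes. The plot of levels by role gives both values of each gene.

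**Figure D1:**
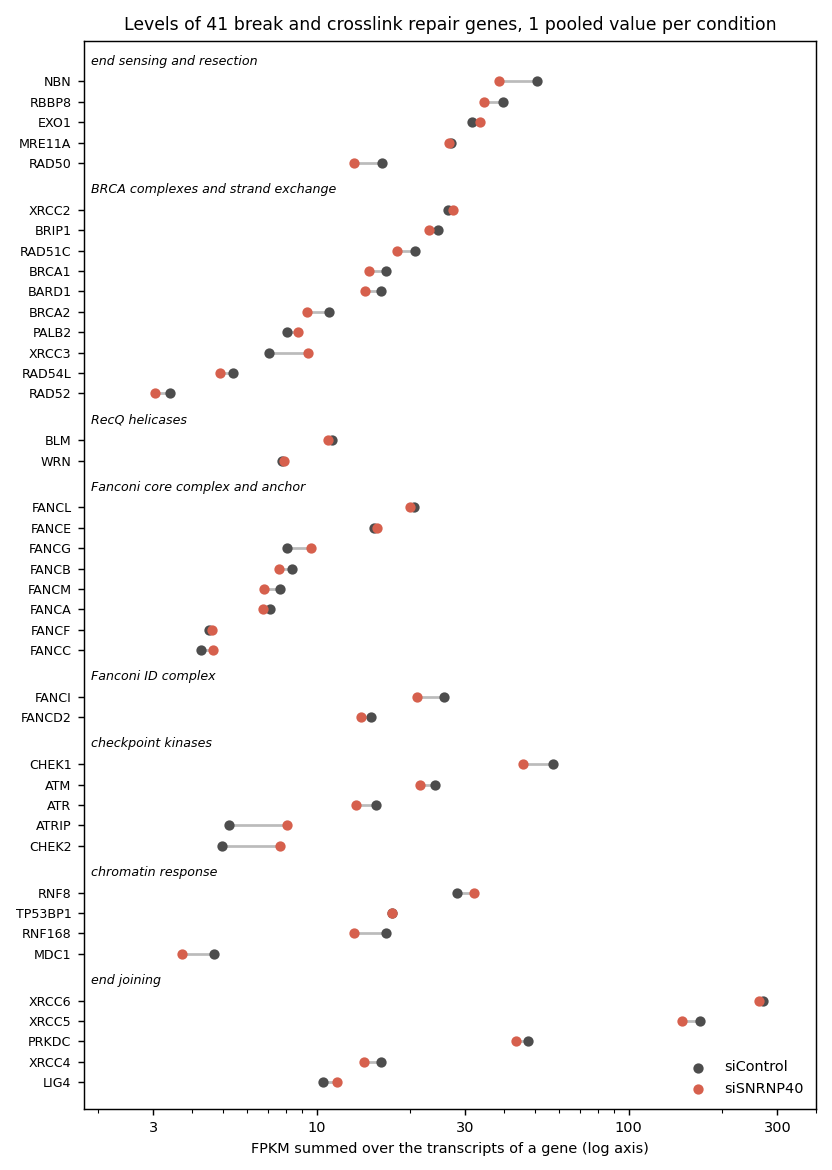
FPKM summed over the transcripts of each of the 41 genes (horizontal log axis), 1 pooled value in siControl (dark) and 1 in siSNRNP40 cells (red), grouped by role and joined by a line; there are no error bars because replicates are pooled. XRCC6 is the highest gene (269 and 261) and RAD52 the lowest (3.38 and 3.03), and ATRIP and CHEK2 have the widest gaps on this axis.

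Genes that sense and resect ends were lower in 4 of 5 cases, beside 65.9% of all members and 49.5% of all genes. Their median log2 fold change was -0.20. With so few genes per role, such counts do not set a role apart. NBN, the subunit of the MRE11-RAD50-NBN complex that recruits ATM, had an FPKM of 50.9 in siControl and 38.5 in siSNRNP40, and its log2 fold change of -0.40 was the lowest of the 41. It is on chromosome 8 of GRCh37 (90945559 to 90996895, minus strand) and has 1 listed transcript, so that no division of fragments among its own transcripts enters its value. RAD50, the ATPase that bridges the ends, went from 16.2 to 13.2 (-0.30), while MRE11A, the nuclease of the complex, was the member of the 3 that differed least. The ratio of MRE11A to NBN FPKM was 0.530 in siControl and 0.689 in siSNRNP40. RBBP8 (CtIP), which starts resection, had values of 39.5 and 34.4 (-0.20). EXO1, the exonuclease of long resection, had 31.5 and 33.4 (0.08) and was the only one of this group above 0.

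In the BRCA complexes and the strand-exchange genes, 7 of 10 members were lower, beside 65.9% of all members and 49.5% of all genes. The median log2 fold change of these 10 was -0.15. BRCA2, a mediator of strand exchange on single-stranded DNA, had an FPKM of 10.96 in siControl and 9.34 in siSNRNP40 (-0.23). BRCA1 had 16.7 and 14.8 (-0.18), and its ubiquitin ligase partner BARD1 had 16.0 and 14.3 (-0.17). The ratio of BRCA1 to BARD1 FPKM was thus 1.04 in siControl and 1.03 in siSNRNP40. PALB2, the bridge between BRCA1 and BRCA2, was slightly higher, with 8.04 and 8.70 (0.11), and the helicase gene BRIP1 had 24.4 and 22.9 (-0.10).

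Among RAD51C, XRCC2 and XRCC3, which are related to each other, the values diverged. RAD51C had an FPKM of 20.7 and 18.1 (-0.20) and XRCC2 had 26.4 and 27.4 (0.05), but XRCC3, the partner of RAD51C, had 7.03 in siControl and 9.39 in siSNRNP40 cells. Its log2 fold change of 0.42 was the third highest of the 41, and it was 0.73 when only transcripts above 0 in both conditions were summed. XRCC3 (chromosome 14, 104163954 to 104181788 of GRCh37, minus strand) overlaps KLC1 on the other strand by 3928 bases. KLC1 was far more abundant, with an FPKM of 58.0 and 62.8 (log2 fold change 0.12), and whether fragments of KLC1 entered the XRCC3 value was not tested. RAD52, which anneals single strands, was the lowest member (3.38 and 3.03, -0.16). RAD54L, the motor of strand invasion, had 5.40 and 4.91 (-0.14), although its most expressed transcript alone was higher, at 3.02 and 3.85 (0.35).

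The RecQ helicases, which dissolve recombination intermediates, hardly differed. BLM had an FPKM of 11.2 in siControl and 10.8 in siSNRNP40 (-0.05), and WRN had 7.74 and 7.85 (0.02).

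**Figure D2:**
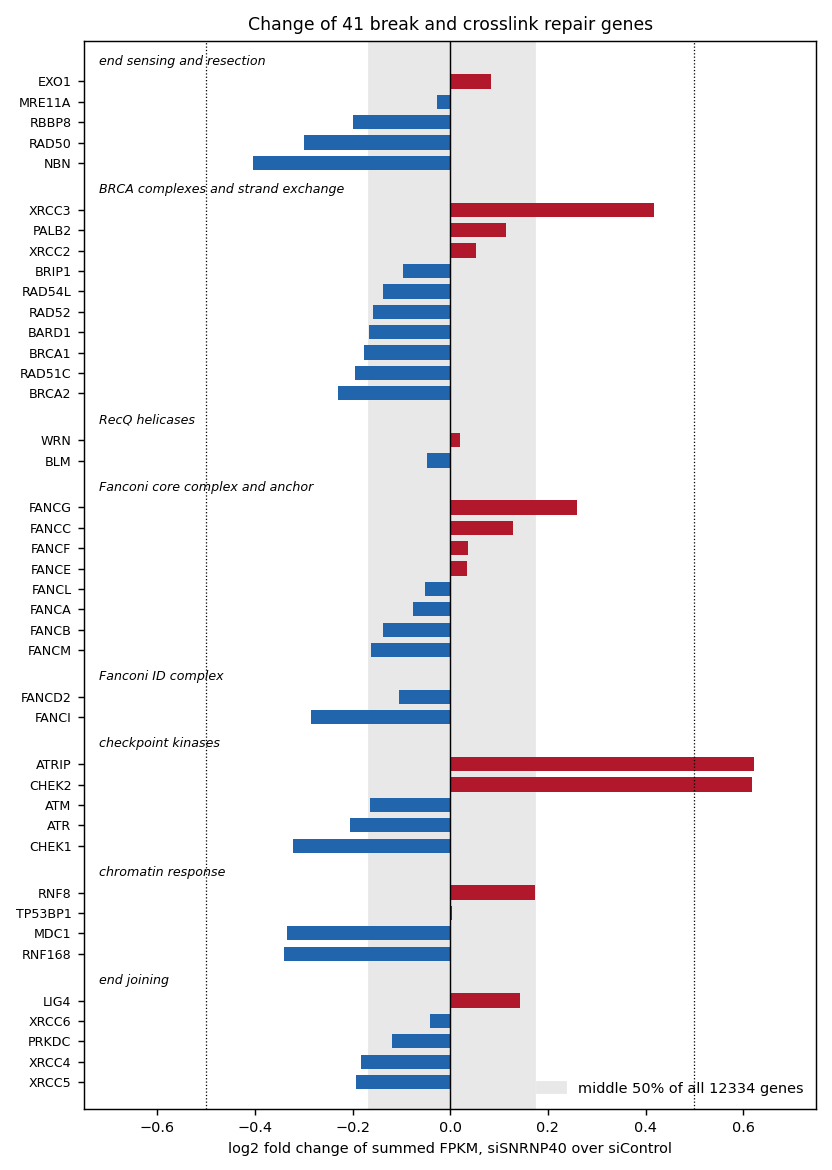
Log2 fold change of summed FPKM, siSNRNP40 over siControl, for each of the 41 genes by role (red above 0, blue below 0). The grey band holds the middle 50% of all 12334 genes and the dotted lines stand at -0.5 and 0.5, which ATRIP and CHEK2 alone among the members pass.

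The genes of the Fanconi core complex and its anchor FANCM were divided evenly, 4 lower and 4 higher, with a median log2 fold change of -0.0088. FANCG, an adaptor of the core complex, was the highest of them, with an FPKM of 8.04 in siControl and 9.63 in siSNRNP40 (0.26). FANCL, the E3 ligase subunit, had 20.6 and 19.9 (-0.05). FANCF, whose canonical transcript has a single exon and no intron to be spliced, had 4.51 and 4.63 (0.04). The other members of the complex were FANCA (7.10 and 6.73), FANCB (8.34 and 7.58), FANCC (4.26 and 4.66) and FANCE (15.3 and 15.6). FANCM, the translocase that brings the complex to the crosslink, had 7.62 and 6.81 (-0.16). Their substrates, the ID complex, were both lower. FANCI had an FPKM of 25.6 in siControl and 21.0 in siSNRNP40 (-0.28) and FANCD2 had 14.9 and 13.9 (-0.11).

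The checkpoint kinases with ATRIP held the widest range of the roles. ATRIP, which carries ATR to single-stranded DNA coated by replication protein A, had an FPKM of 5.23 in siControl and 8.06 in siSNRNP40. This is a 1.54-fold higher level (log2 fold change 0.62), at percentile 98.0 of the genes with a mean FPKM from 5 to 10. ATR itself had 15.5 and 13.4 (-0.21), so that the ratio of ATR to ATRIP was 2.96 in siControl and 1.67 in siSNRNP40. ATRIP is on the plus strand of chromosome 3 of GRCh37 (48488141 to 48509044), and its canonical transcript overlaps the nuclease gene TREX1 by 1416 bases on the same strand. The listed ATRIP transcripts are placed within chr3:48488218-48507054, which ends before the canonical transcript does. The overlap therefore need not lie within the transcripts whose FPKM was summed. TREX1 was listed at 2.93 and 2.62 (-0.16), and the division of fragments between these genes was not tested.

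CHEK2, the effector kinase downstream of ATM, had an FPKM of 4.99 in siControl and 7.65 in siSNRNP40, a 1.53-fold higher level (0.62). It lies on the minus strand of chromosome 22 (29083731 to 29137808), and the annotation names 7 pseudogenes of it. Whether fragments were shared with these copies was not tested, and its value is uncertain in that respect. CHEK1, the effector kinase downstream of ATR and the most abundant of the group, went the other way, with 57.3 and 45.9 (-0.32, or -0.18 over transcripts above 0 in both conditions). ATM had 24.0 and 21.4 (-0.16). The 3 kinases ATM, ATR and CHEK1 were thus all lower by small amounts, whereas CHEK2 and the ATR partner were higher.

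Of the chromatin response genes, which mark and bridge the break, RNF168 and MDC1 were lower. RNF168, the ligase that ubiquitylates histone H2A, had an FPKM of 16.7 in siControl and 13.2 in siSNRNP40 (-0.34), and the scaffold gene MDC1 had 4.68 and 3.72 (-0.33). RNF8, which acts between them, had 28.3 and 31.9 (0.17). The sum for TP53BP1, which restrains resection, was the least different of all members, at 17.5 in both conditions (log2 fold change 0.0036), although its transcripts were not, as described further on.

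End joining held the most abundant members. The Ku subunits XRCC6 (Ku70) and XRCC5 (Ku80) had an FPKM of 269 and 169.8 in siControl, and 261 and 148.7 in siSNRNP40 cells, which are log2 fold changes of -0.04 and -0.19. Since FPKM is scaled by length, these levels can be compared, and XRCC5 stood at 0.631 of XRCC6 in siControl and 0.569 in siSNRNP40. The annotation names 5 pseudogenes of XRCC6, and 1 each of BRCA1, MRE11A, RBBP8, RAD52 and FANCD2. Whether fragments were shared with any of these was not tested. PRKDC, which encodes DNA-PKcs, had 47.5 and 43.7 (-0.12). The ligase gene LIG4 had 10.5 and 11.6 (0.14), while that of its scaffold XRCC4 had 16.1 and 14.2 (-0.18), a direction that is opposite (0.66) in its most expressed transcript.

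The members were also read against genes of similar level, since fold changes spread more widely among genes of low FPKM. In classes of mean FPKM of 1 to 5, 5 to 10, 10 to 20, 20 to 50 and at least 50, 3 members lay above percentile 90 of their class (ATRIP, CHEK2 and XRCC3) and 3 below percentile 10 (NBN, CHEK1 and RNF168). Below percentile 25 there were 15 members and above percentile 75 there were 6. For orientation, the middle 80% of the 2342 genes with a mean FPKM from 10 to 20 lay between -0.32 and 0.27.

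Single transcripts moved more than their sums. Of 98 listed member transcripts, 63 had a mean FPKM of at least 1, and 62 of these were above 0 in both conditions. Among the 62, 8 (12.9%) had an absolute log2 fold change above 1, 3 higher and 5 lower, where the share of all transcripts that passed the same filter was 10.5%. The 8 belonged to 8 genes, all with several listed transcripts. They were 18.6% of the 43 filtered transcripts of such members, beside 16.9% for all genes with several transcripts. None of the 19 members with 1 listed transcript was past that fold, as were 1.83% of all such genes. The deposited table gives an identifier but no exon structure for each transcript, so the exons that set them apart are not known, and cuffdiff divides fragments among overlapping transcripts by a model.

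The largest shifts were in TP53BP1 and XRCC4. For TP53BP1 (chromosome 15, 43695259 to 43785354, minus strand), transcript TCONS_00013748 had an FPKM of 17.2 in siControl and 11.2 in siSNRNP40, while TCONS_00013747 had 0.0400 and 6.28. The share of the second in the gene's sum was 0.229% in siControl and 35.8% in siSNRNP40, and its log2 fold change of 7.29 rests on a control value close to 0. The gain of one transcript and the loss of the other nearly cancel in the sum. TP53BP1 overlaps TUBGCP4 on the other strand by 6711 bases, and TUBGCP4 had 6.81 and 6.95 (0.03).

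For XRCC4 (chromosome 5, 82373366 to 82649579, plus strand), TCONS_00031306 had an FPKM of 6.84 in siControl and 0.548 in siSNRNP40 (-3.64), and TCONS_00031307 had 6.99 and 11.1 (0.66). These transcripts were nearly equal in control cells, with 42.5% and 43.5% of the sum. After SNRNP40 depletion they held 3.86% and 78.1%, so that most of the sum lay in 1 transcript.

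Transcript shifts of a smaller size appeared in recombination genes. Of RAD54L, TCONS_00000676 had an FPKM of 2.38 in siControl and 1.06 in siSNRNP40 (-1.16), and its share in the sum was 44.1% and 21.6%. Of XRCC3, TCONS_00012836 had 1.29 and 4.0 (1.63), TCONS_00012837 had 4.38 and 5.39 (0.30), and TCONS_00012838 had 1.36 in siControl and was listed at 0 in siSNRNP40. Of EXO1, TCONS_00002174 had 10.4 and 4.19 (-1.31) while TCONS_00002173 had 21.2 and 29.1 (0.46), again with little difference in the sum. Of MRE11A, TCONS_00008357 had 1.10 and 3.03 (1.47), and of BRCA1, TCONS_00017751 had 1.57 and 0.466 (-1.76). The ATRIP sum rested on TCONS_00027356, with 4.23 and 8.05 (0.93), its share being 80.8% in siControl and 99.9% in siSNRNP40.

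CHEK1 has 9 listed transcripts, the most of the 41 genes. TCONS_00007345 had an FPKM of 2.24 in siControl and 0.490 in siSNRNP40 (-2.19). TCONS_00007349 had 5.14 in siControl and was listed at 0 in siSNRNP40, for which no fold is given. The CHEK1 log2 fold change was -0.32 from the sum and -0.18 over transcripts above 0 in both conditions. Whether fragments of TCONS_00007349 were assigned to other CHEK1 transcripts in siSNRNP40 was not tested. The most abundant CHEK1 transcript, TCONS_00007351, had 24.6 and 20.2 (-0.28).

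In spite of these shifts, the most expressed transcript was the same in both conditions in all 22 members with several listed transcripts, where it differed in 14.8% of 5282 such genes. MDC1 is among the 22 but could not differ, since only 1 of its 8 listed transcripts is above 0. On the main chromosomes only, the transcript differed in 0 of 21 members. A difference of at least 20 percentage points in the share of the leading transcript was seen in 3 of the 22 (13.6%), XRCC4, TP53BP1 and RAD54L, beside 16.9% of such genes in the table. The plot of transcripts gives the sums and their composition for the 8 genes with a transcript past 1.

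**Figure D3:**
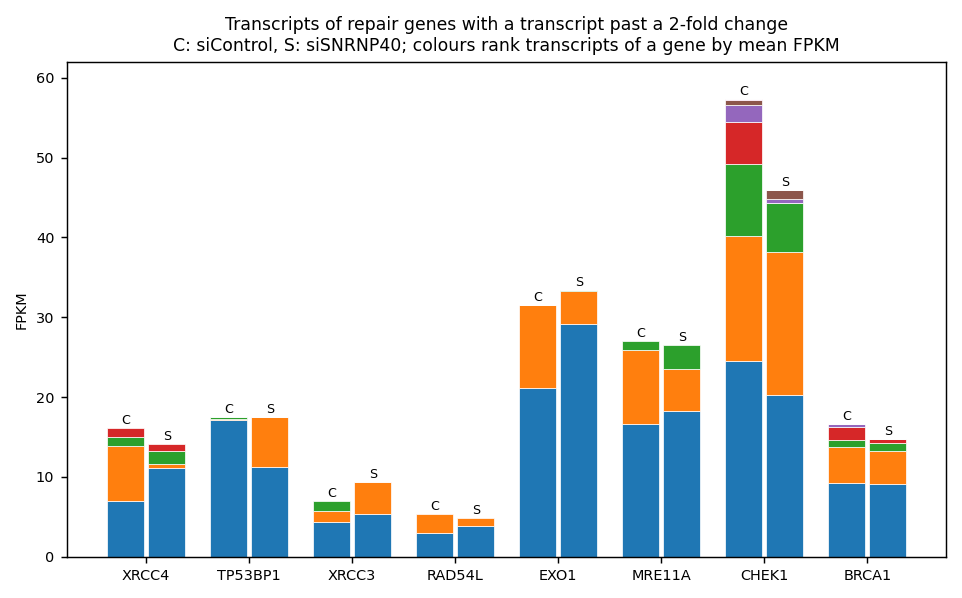
Stacked FPKM (vertical axis) of the listed transcripts of the 8 genes with a transcript past an absolute log2 fold change of 1, in siControl (C) and siSNRNP40 (S) cells; colours rank the transcripts of a gene by mean FPKM and do not correspond between genes. The second transcript of TP53BP1 is nearly absent in C and makes up 35.8% in S, and that of XRCC4 goes from 42.5% to 3.86%.

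Gene structure was compared with the differences because these genes are long. The canonical transcripts of the 41 members had a median genomic span of 65.0 kb and a median of 15 exons, against 28.4 kb and 9 exons over 11006 protein-coding genes that passed the filter. Of 16 members with a span of 50 to 100 kb, 14 were lower and 2 higher, and of 7 members at 100 kb or more, 5 were lower and 2 higher. In contrast, of 6 members under 20 kb, 1 was lower and 5 higher, and of the 12 from 20 to 50 kb, 7 were lower and 5 higher. The members' median log2 fold change was 0.09, -0.09, -0.16 and -0.12 from the shortest class to the longest.

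The same order was present in the whole table at a smaller size. The median over all protein-coding genes was 0.04 under 20 kb, -0.01 from 20 to 50 kb, -0.04 from 50 to 100 kb and -0.04 at 100 kb or more, and 43.2%, 52.5%, 57.9% and 57.1% of these genes were below 0. By exon number, 8 of 9 members with 20 to 29 exons and 6 of 7 with at least 30 were lower, as were 55.7% and 58.5% of all protein-coding genes in these classes. Spearman's rho between span and log2 fold change was -0.28 over the 41 members and -0.15 over the 11006 genes, and for exon number it was -0.28 and -0.09. These are descriptions across genes that share the same pooled libraries, and genes are not independent replicates. Among the members, rho with mean FPKM was of similar size (-0.25), and the parts of span, exon number and level were not separated.

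**Figure D4:**
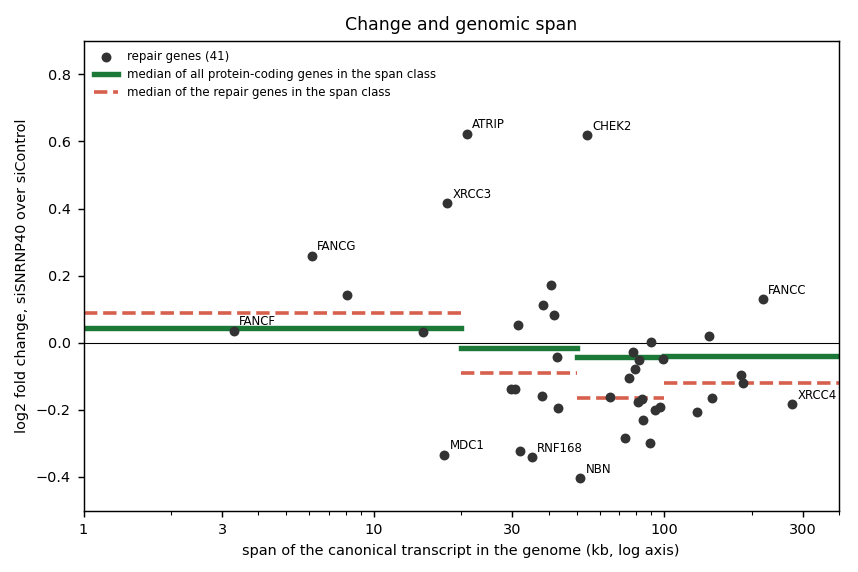
Log2 fold change (siSNRNP40 over siControl) against the genomic span of the canonical transcript (log axis, kb) for the 41 genes as points; solid lines give the median of all protein-coding genes in a span class and dashed lines that of the 41 genes. The dashed line is above 0 under 20 kb and below 0 in the 3 longer classes, and ATRIP and CHEK2 lie apart from the other genes of their span.

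Some of the 41 genes share a promoter region with a neighbour on the other strand. In the annotation 19 of the 41 have such a divergent neighbour, with starts at most 1000 bases apart. For 10 of these pairs the neighbour passed the expression filter. By summed FPKM the direction was the same in 4 pairs and opposite in 6. The shares over all genes were not counted, so these counts are not read as a trait of repair genes. CHEK2 and HSCB, an iron-sulphur cluster co-chaperone gene whose start is 219 bases away, were both higher, HSCB with an FPKM of 6.15 in siControl and 7.51 in siSNRNP40 (0.29). XRCC4 and TMEM167A, 153 bases apart, went opposite ways by the XRCC4 sum (-0.18), as TMEM167A had 56.1 and 86.9 (0.63). The most expressed XRCC4 transcript alone was higher (0.66), so the direction of this pair depends on how the XRCC4 value is formed. ATM and the histone gene activator NPAT also differed in sign, NPAT having 19.6 and 19.9 (0.02), and the partner of BRCA1, NBR2, had 1.41 in both conditions (0.0096).

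The promoters of CHEK2, of ATRIP and of XRCC4 are printed for the following reasons. The first is shared by a pair that was higher together, and the second belongs to the other member past 0.5. The third is shared by a pair that went apart by the XRCC4 sum, though not by its most expressed transcript. Each runs from 250 bases before to 50 after a RefSeq start on GRCh38.p14 (for genes with several starts, the first listed), 5' to 3' along the gene. Capitals mark CCAAT, the core of the box bound by NF-Y, on either strand, so that ATTGG is the same box read from the other strand.
CHEK2, chr22:28741771-28742070, minus strand: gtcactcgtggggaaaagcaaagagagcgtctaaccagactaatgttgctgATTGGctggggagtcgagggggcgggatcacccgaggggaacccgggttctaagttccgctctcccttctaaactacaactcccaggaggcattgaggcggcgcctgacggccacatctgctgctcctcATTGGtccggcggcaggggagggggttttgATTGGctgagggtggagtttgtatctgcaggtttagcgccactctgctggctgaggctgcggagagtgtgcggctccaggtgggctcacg
ATRIP, chr3:48446487-48446786, plus strand: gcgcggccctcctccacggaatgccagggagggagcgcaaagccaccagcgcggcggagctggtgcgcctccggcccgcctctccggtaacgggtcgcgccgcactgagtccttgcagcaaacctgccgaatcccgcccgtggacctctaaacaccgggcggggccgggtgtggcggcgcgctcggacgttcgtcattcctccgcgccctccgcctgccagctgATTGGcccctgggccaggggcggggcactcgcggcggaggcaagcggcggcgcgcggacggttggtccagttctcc
XRCC4, chr5:83077297-83077596, plus strand: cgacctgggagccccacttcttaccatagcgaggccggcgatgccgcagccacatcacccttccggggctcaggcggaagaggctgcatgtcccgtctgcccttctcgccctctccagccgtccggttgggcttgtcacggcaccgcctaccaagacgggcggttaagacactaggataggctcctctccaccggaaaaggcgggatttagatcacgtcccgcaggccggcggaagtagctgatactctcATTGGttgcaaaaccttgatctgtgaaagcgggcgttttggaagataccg
CHEK2 held 3 such boxes, and ATRIP and XRCC4 held 1 each.

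Of the members, 36 were matched to a promoter in the RefSeq table, and NBN, WRN, PRKDC, FANCI and XRCC5 were not. CCAAT on either strand was present in 18 of the 36 (50%), where 35.7% of all 27305 promoters of this length held it. The E2F motif, searched as TTTCCCGC or TTTGGCGC on both strands, was present in 4 (11.1%), FANCC, FANCD2, XRCC2 and XRCC6, beside 2.31% of all promoters. The cell cycle motif CHR, searched as TTTGAA or TTCGAA on both strands, was present in 4 (11.1%), beside 16.6%. These searches could overlap in the bases they match. The 27305 promoters were not limited to genes that passed the expression filter, as all members did, so the shares compare unlike sets and were not tested. The median log2 fold change was -0.04 in the 18 members with a CCAAT and -0.15 in the 18 without, and members with a match went both ways, 11 lower and 7 higher. For E2F, 2 of the 4 were lower and 2 higher.

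Other genes of these pathways, a list of 59 that holds the crosslink nucleases, the 9-1-1 clamp, replication protein A and further helicases, all passed the expression filter. Of these, 28 were lower and 31 higher, with a median log2 fold change of 0.011, and the share below 0 was 47.5%, beside 65.9% of the 41 members and 49.5% of all genes. The difference between the lists was not tested. RTEL1, a helicase that disassembles recombination intermediates, was the only gene of the list past 0.5, with an FPKM of 7.56 in siControl and 5.22 in siSNRNP40 (-0.53). It was followed by the recombination gene RAD51D (4.75 and 3.44, -0.47), RMI2 of the BLM complex (8.19 and 6.18, -0.41), RAD1 of the clamp (21.0 and 16.2, -0.37) and the crosslink nuclease DCLRE1A (7.46 and 5.81, -0.36). The highest were RAD9A, also of the clamp (3.86 and 4.75, 0.30), the nuclease subunit ERCC1 (33.2 and 40.3, 0.28), C17orf70 (2.79 and 3.36, 0.27), C1orf86 (2.04 and 2.44, 0.26) and the polymerase gene REV1 (16.1 and 19.01, 0.24). RAD1 and RAD9A, subunits of the same ring, stood at opposite ends.

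Because many recombination genes are transcribed mainly in cycling cells, cell cycle genes were read beside them. Of 17 genes of replication and division, 11 were lower and 6 higher (median log2 fold change -0.04). The share below 0 was 64.7%, beside 65.9% of the 41 members and 49.5% of all genes. None of the 17 was past 0.5, where 10.3% of all genes were. The lowest was CCNE2, with an FPKM of 33.9 in siControl and 26.0 in siSNRNP40 (-0.38), and the highest E2F1, with 8.66 and 11.02 (0.35). The proliferation marker MKI67 was at 68.1 in both conditions. The part of cycling in the values of the repair genes was not tested.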

How the data were processed

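The 4 RNA-sequencing libraries of LV-M100 cells, 2 per condition, were available as 1 table with a line per transcript. Per the labels and the study's methods, adapters were removed with cutadapt 1.2.1, TopHat 2.0.8 was used for alignment to hg19, Cufflinks assemblies were joined by cuffmerge, and Cuffdiff 2.0.2 gave the deposited values. These are FPKM, pooled by the authors over the libraries of a condition, and the limma fit foreseen for values per library could not be made. Fold changes, test statistics, p-values and q-values of the authors' own comparison stand in further columns and were not used.

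FPKM was summed over the transcripts of a symbol. Log2 fold changes of siSNRNP40 over siControl were taken without a pseudocount, for genes whose mean FPKM reached 1. The members, their roles and the other lists were chosen with earlier results of these data known. All members are named. Transcripts are named where past an absolute log2 fold change of 1, and those beside them, like the divergent neighbours, after their values were seen. Of the other pathway genes the 5 highest and 5 lowest are named, and of the cycling genes the highest and lowest, with MKI67 added after its values were seen. Some results are not reported here.

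Structures came from GENCODE release 44 on GRCh37, whose coordinates equal those of hg19, with 95.1% of filtered genes matched by symbol or older symbol. MRE11A is MRE11 there. Promoters came from RefSeq on GRCh38.p14. Computations used pandas 2.3.3 and numpy 2.4.6 under Python 3.11.15, and plots matplotlib 3.10.9. Filters, pseudocounts, scalings and the way a gene's value is formed were varied as alternatives.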

Additional observations from a re-analysis of the deposited data

How the results depend on the processing

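No paired analysis was possible because both libraries of a condition enter a single pooled value. Fits without each replicate, or with a replicate block, were not run for that reason, and sequencing depth cannot be read from the table. A log2 value counted as moved when it changed by at least 0.1, and a count when it changed by more than 1.5 times.

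No member passed an absolute log2 fold change of 1 under any of the 8 alternatives. With the most expressed transcript in place of the sum, 4 members passed 0.5 instead of 2, and 7 of the other pathway genes instead of 1. That last count was 0 with a pseudocount of 1. With transcripts above 0 in both conditions only, 3 members and 2 other pathway genes passed 0.5, and the moved members were XRCC3 (from 0.42 to 0.73) and CHEK1 (from -0.32 to -0.18). Restricting to the 19 members with 1 listed transcript, a choice made after the data were seen, left 13 lower members, a median of -0.16 and 0 past 0.5. Member transcripts past 1 numbered 8, but 1 when the mean FPKM had to reach 5, and 4 when both conditions had to reach an FPKM of 1. By share of the leading transcript, 3 members changed where 0 changed their most expressed transcript. The log2 fold change of SNRNP40 was -2.54 with a pseudocount of 1. Some of these alternatives leave fewer genes or transcripts, and otherwise the cause was not tested. Of 324 values of single members under the alternatives, 309 stayed within 0.1 and 15 moved, 13 of the 15 with the most expressed transcript in place of the sum. The sign changed in 6 members, each with that alternative. These were XRCC4 (from -0.18 to 0.66), RAD54L (from -0.14 to 0.35), MRE11A (from -0.03 to 0.14), TP53BP1 (from 0.0036 to -0.61), FANCA (from -0.08 to 0.0042) and FANCL (from -0.05 to 0.0016). The number of lower members was 23 with it and 27 from the sum.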
